A study of Mus musculus with 27 samples.

Results

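Glycolysis turns glucose into pyruvate, and several of its steps are run by alternative enzymes (isozymes) made from separate genes and used by different tissues. The genes examined here were 10 isozyme genes of 5 such steps: the hexokinases Hk1 and Hk2, the phosphofructokinases Pfkm and Pfkp, the aldolases Aldoa and Aldoc, the enolases Eno1 and Eno2, and the lactate dehydrogenases Ldha and Ldhb. Every probe set annotated to exactly 1 of these genes was taken, which gave 20 of the 45101 probe sets on the array. Of the 10 genes, 9 had at least 1 such probe set, and all 20 probe sets passed the filter on low signal that left 13527 genes for testing. Eno1 was not analysed here, so the change from one enolase to the other was not measured. Hk2, Pfkm, Eno2 and Ldha were each read by 1 probe set, Hk1 and Aldoc by 2, Pfkp by 3, Ldhb by 4 and Aldoa by 5.

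The arrays came from a study of granule neuron precursor identity in Hedgehog-driven medulloblastoma, a tumour of the cerebellum, in mice. Tumours from 4 lines carried SmoM2, an active form of the Hedgehog transducer Smoothened, switched on by a Cre recombinase under a different promoter in each line: Math1-cre:SmoM2 (3 arrays), Tlx3-cre:SmoM2 (3 arrays), Olig2-tva-cre:SmoM2 (7 arrays) and hGFAP-cre:SmoM2 (6 arrays). Math1 is a transcription factor of granule neuron precursors, and the human GFAP promoter is active in multipotent neural progenitors. A further 2 tumours came from Ptc1+/- mice, which have 1 functional copy of the Hedgehog receptor gene Ptc1. The 6 control arrays held non-tumour cerebellum of the Olig2-tva-cre:SmoM2 (2 arrays), Mxi1-cre:SmoM2 (2 arrays), Ptc1+/- (1 array) and hGFAP-cre:SmoM2 (1 array) lines, so by their labels the controls carried SmoM2 or Ptc1 alleles too and none was wild type. No control came from the Math1-cre:SmoM2 or Tlx3-cre:SmoM2 lines, and no tumour from Mxi1-cre:SmoM2. The labels give no age, treatment or RNA pooling. They call the arrays of a tumour group biological replicates, whereas the control arrays are only numbered. Each p-value measures the spread between these samples and takes the controls to be independent, which their labels do not state. All levels below are log2 probe set signals after every array was brought to a common level, and differences between groups are differences of these log2 values.

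Hk1 is the housekeeping hexokinase of brain and binds to mitochondria. Hk2 is the isozyme of muscle and fat, low in mature brain and raised in dividing granule neuron precursors and in many tumours. Aldoc and Eno2 are the brain forms of aldolase and enolase, Eno2 being the neuron-specific enolase and Aldoc being high in astrocytes and in a part of the Purkinje cells. Ldha favours the making of lactate from pyruvate, and Ldhb, the heart form, favours the reverse reaction. Pfkm and Pfkp are the muscle and platelet forms of phosphofructokinase, both present in brain.

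Every one of the 9 measured genes differed between tumours and non-tumour cerebellum, with 2 higher in tumours (Hk2 and Ldha) and 7 lower (Hk1, Pfkm, Pfkp, Aldoa, Aldoc, Eno2 and Ldhb). The comparison set the mean of the 5 tumour groups against the 6 controls with limma, a linear model fitted across all genes, at an adjusted p under 0.05. Of all genes tested, 52.4% were called in this comparison, 26.8% higher and 25.6% lower, so a call by itself is common here. Tumour and control arrays did not overlap for 8 of the 9 genes, Ldha being the exception, against 17.8% of all genes. The median difference over the 9 genes was -1.86, beside 0.02 over all genes.

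**Figure D1:**
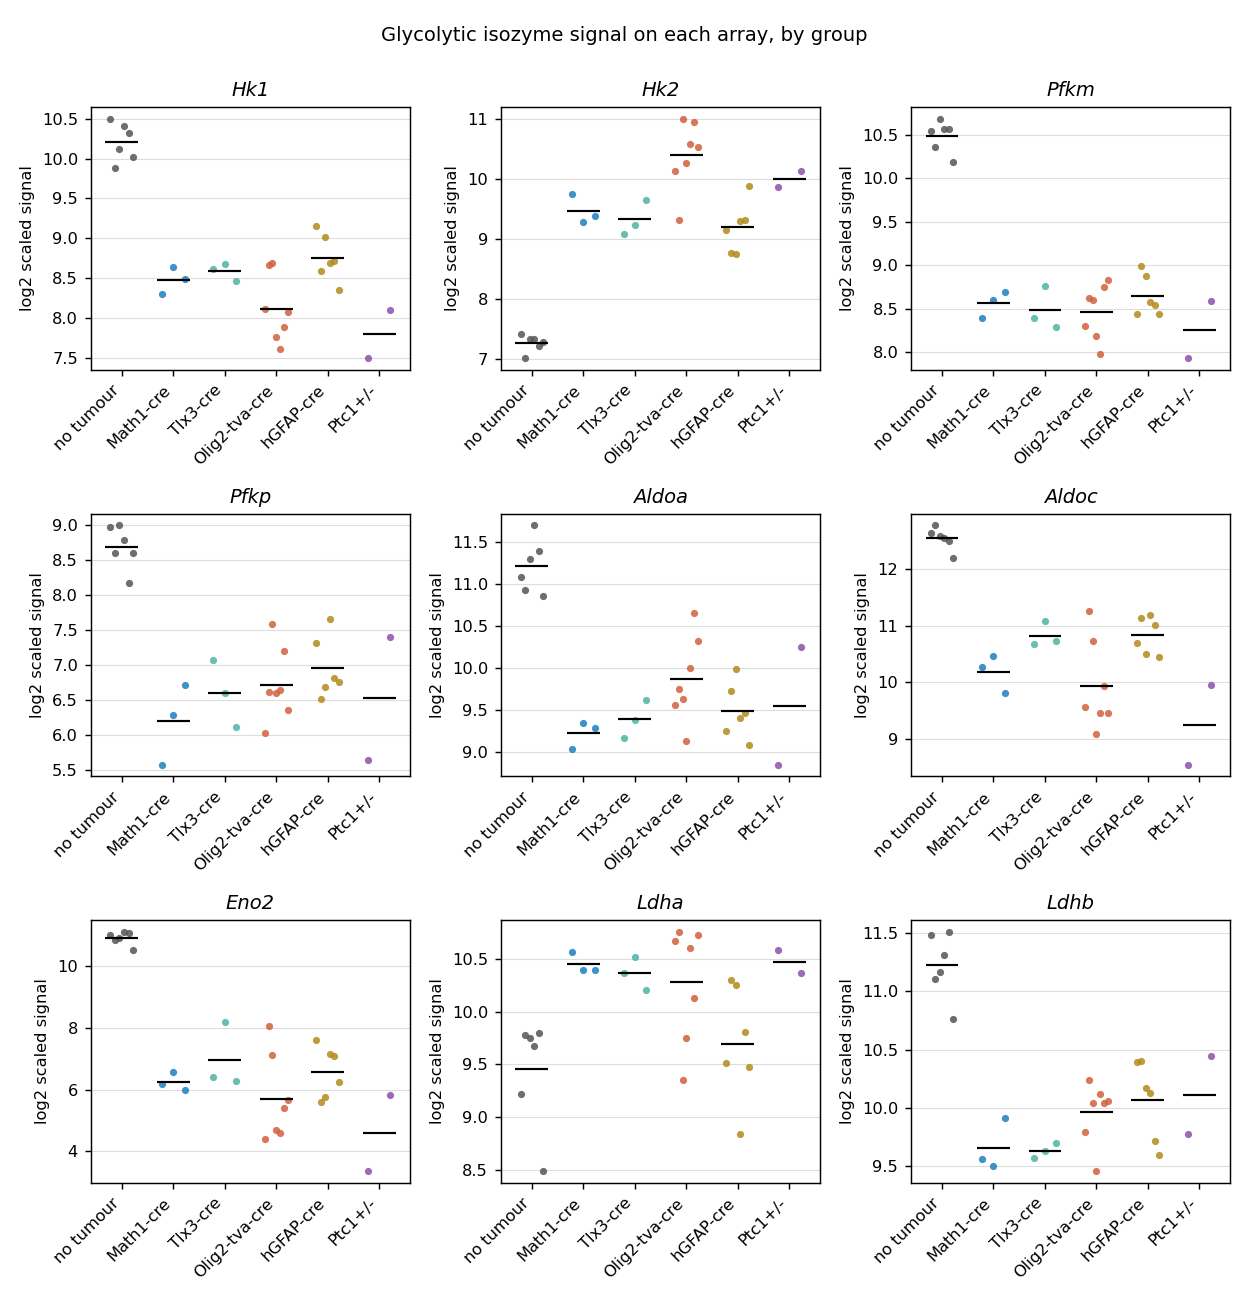
Log2 signal of the 9 measured isozyme genes on each of the 27 arrays, one panel per gene, with arrays grouped on the horizontal axis and the group mean as a bar. Hk2 lies above the control arrays on all 21 tumour arrays, Ldha on 16 of 21, and the other genes lie below the control arrays on all 21.

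The hexokinases moved in opposite directions. Hk2 measured 9.74, 9.29 and 9.38 on the Math1-cre:SmoM2 arrays, 9.09, 9.23 and 9.66 on the Tlx3-cre:SmoM2 arrays, and 9.87 and 10.14 on the Ptc1+/- tumour arrays. In the larger tumour groups it ran from 9.31 through a median of 10.53 to 11.00 (Olig2-tva-cre:SmoM2) and from 8.75 through 9.23 to 9.89 (hGFAP-cre:SmoM2). The non-tumour arrays lay between 7.02 and 7.42 with a median of 7.30. The lowest tumour array, of hGFAP-cre:SmoM2, was therefore well above the highest control. Hk2 was 5.32-fold higher in tumours (a difference of 2.41, SE 0.18, limma adjusted p = 5.70e-12).

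Hk1 showed the reverse. Its levels were 8.31, 8.64 and 8.49 in Math1-cre:SmoM2, 8.61, 8.68 and 8.46 in Tlx3-cre:SmoM2, and 7.50 and 8.09 in Ptc1+/- tumours. Olig2-tva-cre:SmoM2 arrays ran from 7.61 through 8.08 to 8.68 and hGFAP-cre:SmoM2 arrays from 8.35 through 8.70 to 9.16. The controls lay between 9.89 and 10.50 with a median of 10.22. No tumour array reached the lowest control, and Hk1 was 3.64-fold lower in tumours (-1.86, SE 0.15, limma adjusted p = 3.01e-11). The other Hk1 probe set fell by 3.19 on the log2 scale.

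Both measured phosphofructokinases fell, by similar amounts. Pfkm lay between 7.93 and 8.99 on the 21 tumour arrays and between 10.19 and 10.68 on the controls, 4.00-fold lower in tumours (log2 SE 0.14, limma adjusted p = 6.46e-13). Its tumour group means lay close together, from 8.26 ± 0.46 (SD, n = 2) in Ptc1+/- to 8.64 ± 0.23 (SD, n = 6) in hGFAP-cre:SmoM2. Pfkp ranged from 5.58 to 7.66 in tumours and from 8.17 to 8.99 in controls, a 4.24-fold difference (-2.09, SE 0.23, limma adjusted p = 1.03e-08). Pfkp varied most within the Ptc1+/- tumours, whose arrays measured 5.65 and 7.40. The other Pfkp probe sets gave -1.59 and -1.01, and on both of them tumour and control arrays overlapped. The one at -1.59 was at the floor on some tumour arrays, so that difference is a bound.

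The aldolases, which split fructose bisphosphate, fell together. Aldoc measured 10.26, 10.46 and 9.82 in Math1-cre:SmoM2, 10.67, 11.08 and 10.73 in Tlx3-cre:SmoM2, and 8.55 and 9.96 in Ptc1+/- tumours. Olig2-tva-cre:SmoM2 arrays ran from 9.09 through 9.57 to 11.26, hGFAP-cre:SmoM2 arrays from 10.45 through 10.86 to 11.19, and controls from 12.19 through 12.57 to 12.77. The tumour groups spread widely, and Olig2-tva-cre:SmoM2 arrays 2 and 3, at 11.26 and 10.74, stood above the other arrays of their group. Aldoc was 5.05-fold lower in tumours (-2.34, SE 0.23, limma adjusted p = 9.15e-10).

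Aldoa, the widely expressed aldolase, lay between 8.85 and 10.66 in tumours and between 10.86 and 11.70 in controls. The gap between the highest tumour array and the lowest control was small, and the difference was 3.27-fold (-1.71, SE 0.19, limma adjusted p = 1.30e-08). All 5 Aldoa probe sets were lower in tumours, by 0.81 to 1.80 in size, but tumour and control arrays overlapped on 3 of them. The second Aldoc probe set gave -1.53, also with overlap, a bound because 1 Ptc1+/- tumour array was at the floor.

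Eno2 showed the largest difference of the 9 genes. It measured 6.19, 6.58 and 5.99 in Math1-cre:SmoM2 and 6.42, 8.20 and 6.28 in Tlx3-cre:SmoM2, and in the Ptc1+/- tumours it was 5.82 on one array and at the floor of 3.37 on the other. Olig2-tva-cre:SmoM2 arrays ran from 4.41 through 5.41 to 8.07 and hGFAP-cre:SmoM2 arrays from 5.59 through 6.67 to 7.62. The controls lay between 10.52 and 11.12 with a median of 10.97. The controls were thus tight and the tumours scattered, with the highest tumour array, of Tlx3-cre:SmoM2, still far below the lowest control. Eno2 was at least 29.8-fold lower in tumours, a bound because of the array at the floor (-4.90, SE 0.42, limma adjusted p = 5.64e-11).

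The lactate dehydrogenases moved in opposite directions, with Ldha the less clear of the pair. Ldha measured 10.56, 10.39 and 10.39 in Math1-cre:SmoM2, 10.36, 10.52 and 10.21 in Tlx3-cre:SmoM2, and 10.58 and 10.36 in Ptc1+/- tumours. Olig2-tva-cre:SmoM2 arrays ran from 9.35 through 10.60 to 10.75 and hGFAP-cre:SmoM2 arrays from 8.84 through 9.66 to 10.30. The controls ran from 8.49 through 9.71 to 9.80. Of the 21 tumour arrays 16 lay above all controls, and the 5 inside the control range were 2 of Olig2-tva-cre:SmoM2 and 3 of hGFAP-cre:SmoM2. Ldha was 1.74-fold higher in tumours (0.80, SE 0.21, limma adjusted p = 0.00229). Without the rescaling of the arrays the difference was 0.45 (limma adjusted p = 0.309).

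RNA quality moved with the Ldha level. The log2 ratio of 3' to 5' control probe signal, which grows as RNA is degraded, was highest on 5 arrays, and on these Ldha measured 9.35 and 9.75 (Olig2-tva-cre:SmoM2), 8.84 and 9.47 (hGFAP-cre:SmoM2) and 9.22 (non-tumour). Those 4 tumour arrays are among the 5 inside the control range. With these 5 arrays left out the Ldha difference was 0.87 (limma adjusted p = 0.000196), and with the 3' to 5' ratio as a covariate it was 0.70 (limma adjusted p = 0.000898). The lowest control, at 8.49, was the Ptc1+/- one.

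Ldhb measured 9.55, 9.50 and 9.91 in Math1-cre:SmoM2, 9.56, 9.63 and 9.69 in Tlx3-cre:SmoM2, and 9.77 and 10.44 in Ptc1+/- tumours. Olig2-tva-cre:SmoM2 arrays ran from 9.45 through 10.04 to 10.24, hGFAP-cre:SmoM2 arrays from 9.59 through 10.15 to 10.40, and controls from 10.77 through 11.24 to 11.51. All tumour arrays lay below all controls, and Ldhb was 2.54-fold lower in tumours (-1.34, SE 0.14, limma adjusted p = 5.53e-09). The 4 Ldhb probe sets gave differences from -1.42 to -1.20, and on 3 of them the arrays did not overlap.

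**Figure D2:**
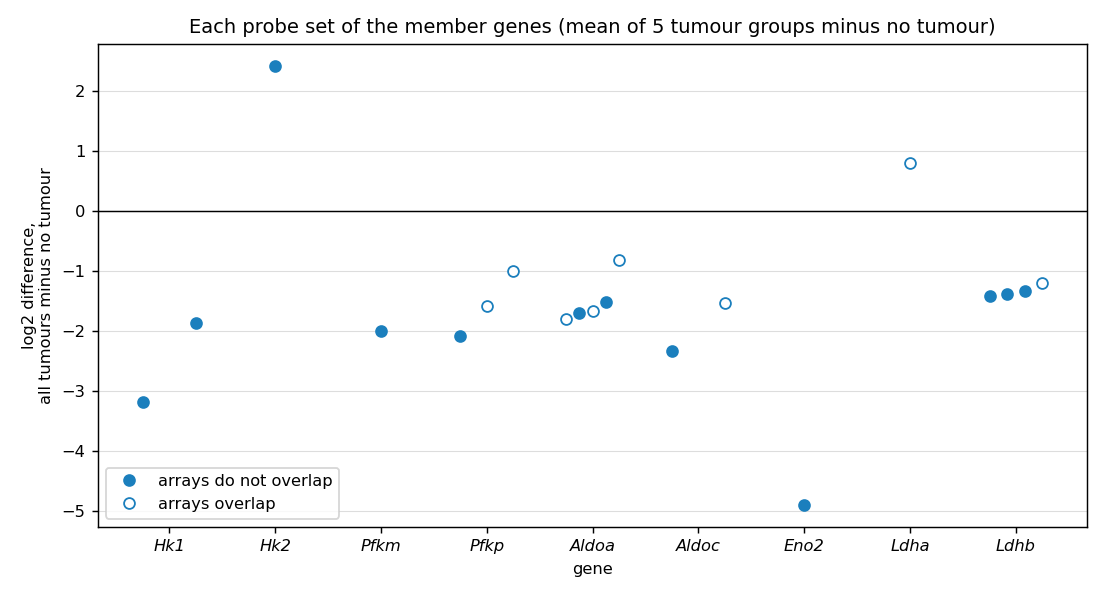
Log2 difference between tumours and non-tumour cerebellum for each of the 20 probe sets of the 9 genes, with filled points where tumour and control arrays do not overlap and open points where they do. All probe sets of a gene lie on the same side of 0, with Eno2 at -4.90 and Hk2 at 2.41 as the extremes.

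The isozyme pairs were then compared within each array, so that the factor used to rescale an array cancels for signals above the floor. A probe set's signal cannot be set against that of another, so a ratio above or below 0 on the log2 scale says nothing about which isozyme is more abundant, and only changes of the ratio between groups were read. Differences were tested by an exact two-sided permutation test of the arrays, with p-values adjusted over 40 tests (4 pairs in 10 comparisons).

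The Hk2-to-Hk1 log2 ratio was 1.44, 0.65 and 0.89 in Math1-cre:SmoM2, 0.48, 0.55 and 1.19 in Tlx3-cre:SmoM2, and 2.37 and 2.04 in Ptc1+/- tumours. It ran from 0.64 through 2.45 to 3.06 in Olig2-tva-cre:SmoM2 and from -0.26 through 0.40 to 1.54 in hGFAP-cre:SmoM2. The controls lay between -3.11 and -2.74 with a median of -2.97. No tumour array came near the controls, whose values lay close together. The mean was 1.35 ± 1.01 (SD, n = 21) in tumours and -2.94 ± 0.16 (SD, n = 6) in controls, a 19.5-fold shift (4.29, exact permutation p = 6.76e-06, the smallest that 296010 splits can give, adjusted p = 0.000135). With the other Hk1 probe set, which was at the floor on some tumour arrays, the shift was at least 5.72.

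The Ldha-to-Ldhb log2 ratio was 1.01, 0.89 and 0.49 in Math1-cre:SmoM2, 0.80, 0.89 and 0.52 in Tlx3-cre:SmoM2, and 0.81 and -0.08 in Ptc1+/- tumours. It ran from -0.69 through 0.49 to 0.87 in Olig2-tva-cre:SmoM2 and from -1.29 through -0.11 to 0.09 in hGFAP-cre:SmoM2. The controls ran from -2.28 through -1.68 to -1.33. The sides did not overlap, but the lowest tumour array, of hGFAP-cre:SmoM2, was only just above the highest control. The mean was 0.25 ± 0.62 (SD, n = 21) in tumours and -1.77 ± 0.41 (SD, n = 6) in controls, a 4.08-fold shift (2.03, exact permutation p = 6.76e-06, the smallest possible, adjusted p = 0.000135). All 4 choices of Ldhb probe set gave a shift between 1.89 and 2.09, with no overlap for 1 of the 4.

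The Aldoa-to-Aldoc and Pfkp-to-Pfkm ratios did not pass the test. The Aldoa-to-Aldoc ratio averaged 0.61 higher in tumours (exact permutation p = 0.106, adjusted p = 0.212), and over the 10 choices of probe sets the difference ran from -0.40 to 1.46. By group it was -1.23, -1.12 and -0.53 in Math1-cre:SmoM2, -1.50, -1.71 and -1.10 in Tlx3-cre:SmoM2, and 0.30 on both Ptc1+/- tumour arrays. In Olig2-tva-cre:SmoM2 it ran from -1.51 through 0.04 to 0.86, in hGFAP-cre:SmoM2 from -1.78 through -1.42 to -0.52, and in controls from -1.84 through -1.31 to -0.85. The Ptc1+/- tumours and 5 of the 7 Olig2-tva-cre:SmoM2 tumours therefore lay above all controls, while Tlx3-cre:SmoM2 and most hGFAP-cre:SmoM2 tumours lay among them. The Pfkp-to-Pfkm ratio differed by -0.04 (exact permutation p = 0.867, adjusted p = 0.937), with tumours from -2.81 to -0.91 and controls from -2.39 to -1.57. With the other Pfkp probe sets the difference was 0.96 and 0.42, so its direction depends on the probe set.

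**Figure D3:**
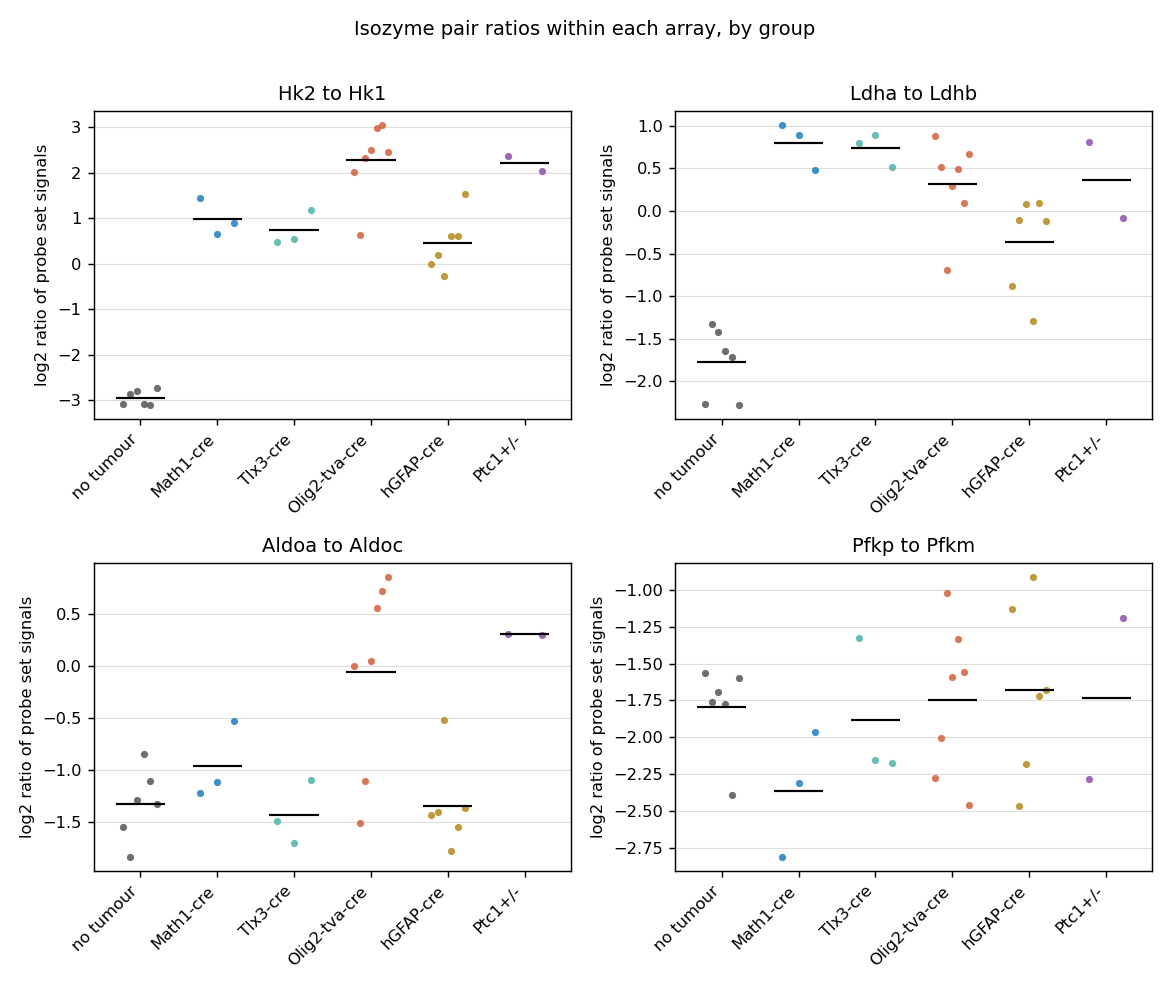
Log2 ratio of the paired isozymes on each of the 27 arrays, one panel per pair, with arrays grouped on the horizontal axis and the group mean as a bar. The tumour arrays lie above all 6 controls for Hk2 to Hk1 and for Ldha to Ldhb, and overlap them for Aldoa to Aldoc and Pfkp to Pfkm.

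Within single lines, where tumours and controls have the same line name in their labels, the Hk2-to-Hk1 and Ldha-to-Ldhb ratios were again higher in tumours. Each line has only 1 or 2 controls, and the ratios were not tested line by line. The Hk2-to-Hk1 ratio was 5.25 higher in Olig2-tva-cre:SmoM2 tumours than in the 2 controls of that line, 3.24 higher in hGFAP-cre:SmoM2 (1 control) and 4.95 higher in Ptc1+/- (1 control). The Ldha-to-Ldhb ratio was higher by 2.12, 1.05 and 2.64 in the same order. The Aldoa-to-Aldoc ratio differed by 1.63, -0.06 and 1.63 and the Pfkp-to-Pfkm ratio by -0.09, 0.01 and -0.14. For single genes a limma fit by line was made, in which a lone control is assumed to vary like the other groups. In it Ldha differed by 0.78 in Olig2-tva-cre:SmoM2 (limma adjusted p = 0.0815), by -0.05 in hGFAP-cre:SmoM2 (limma adjusted p = 0.962) and by 1.98 in Ptc1+/- (limma adjusted p = 0.00973). In the Ptc1+/- line Aldoa differed by -1.31 (limma adjusted p = 0.0809) and Ldhb by -0.66 (limma adjusted p = 0.270), and every other gene was called in each line.

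Levels of cell type markers changed along with the isozymes. In bulk tissue, fewer cells of a type and less RNA per cell cannot be told apart. The counts below stand beside 26.8% of all genes called higher and 25.6% called lower in the same comparison. All 10 of 10 mature granule neuron markers tested were lower in tumours (Gabra6, a GABA receptor subunit, by 5.46 in size), and their summed log2 level was 14.75 to 15.24 in controls and 10.96 to 12.92 in tumours. Of the Purkinje cell markers 8 of 9 were lower and Foxp2 was higher, with sums of 14.43 to 14.87 in controls and 9.46 to 12.01 in tumours, and Slc1a6 at the floor on every Math1-cre:SmoM2 and Ptc1+/- tumour array. Of the astrocyte and Bergmann glia markers 11 of 13 were lower and Gfap and Fabp7 were higher, with sums of 14.34 to 14.82 in controls and 12.90 to 14.65 in tumours. Of the oligodendrocyte markers 9 of 10 and of the interneuron markers 8 of 8 were lower. Of the endothelial and mural cell markers 5 of 8 were lower. Of the granule neuron precursor markers 10 of 13 were higher, among them the transcription factor Atoh1 (4.69), and Zic2 was lower (-0.64), with sums of 13.38 to 13.86 in controls and 14.20 to 15.05 in tumours. All 11 cell division genes and 10 of 11 microglia markers were higher, the former with sums of 9.73 to 10.58 in controls and 12.81 to 14.45 in tumours. What part these changes have in the isozyme differences was not tested.

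Set against each tumour group in turn, the 9 genes kept their directions. All 9 were called in Math1-cre:SmoM2 (37.4% of all genes called), Tlx3-cre:SmoM2 (40.3%), Olig2-tva-cre:SmoM2 (49.6%) and Ptc1+/- (36.3%), and 8 of 9 in hGFAP-cre:SmoM2 (41.7%). These comparisons share the 6 controls. Hk2 was higher by 3.13 in Olig2-tva-cre:SmoM2, 2.74 in Ptc1+/-, 2.20 in Math1-cre:SmoM2, 2.06 in Tlx3-cre:SmoM2 and 1.93 in hGFAP-cre:SmoM2. Hk1 differed by -2.09, -2.41, -1.73, -1.62 and -1.46 in the same order, and Eno2 by -5.20, -6.33, -4.67, -3.96 and -4.34. Olig2-tva-cre:SmoM2 and Ptc1+/- thus had the largest differences for all 3 of these genes. The Eno2 value of Ptc1+/- is a bound, because 1 of its 2 arrays was at the floor. Of the 7 dimmest arrays, 5 were of Olig2-tva-cre:SmoM2 and 1 was of Ptc1+/-.

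Ldha had the smallest difference in size of the 9 genes in every group. It differed by 1.00 in Math1-cre:SmoM2 (limma adjusted p = 0.0136), 0.91 in Tlx3-cre:SmoM2 (limma adjusted p = 0.0234), 0.83 in Olig2-tva-cre:SmoM2 (limma adjusted p = 0.00678) and 1.02 in Ptc1+/- (limma adjusted p = 0.0301). In hGFAP-cre:SmoM2 the difference was 0.25 (SE 0.26, limma adjusted p = 0.474). The Math1-cre:SmoM2 call was lost without array 1 of that group (limma adjusted p = 0.0584), and the Tlx3-cre:SmoM2 call without its array 1 (limma adjusted p = 0.0646), its array 2 (limma adjusted p = 0.0897) or the Ptc1+/- control (limma adjusted p = 0.0588). In Ptc1+/- the Ldha call was lost without either tumour array (limma adjusted p = 0.171 and 0.0927) or without the Ptc1+/- control (limma adjusted p = 0.0621). Without Ptc1+/- tumour array 1, Aldoa (-0.96, limma adjusted p = 0.0708) and Ldhb (-0.78, limma adjusted p = 0.0660) were not called either.

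**Figure D4:**
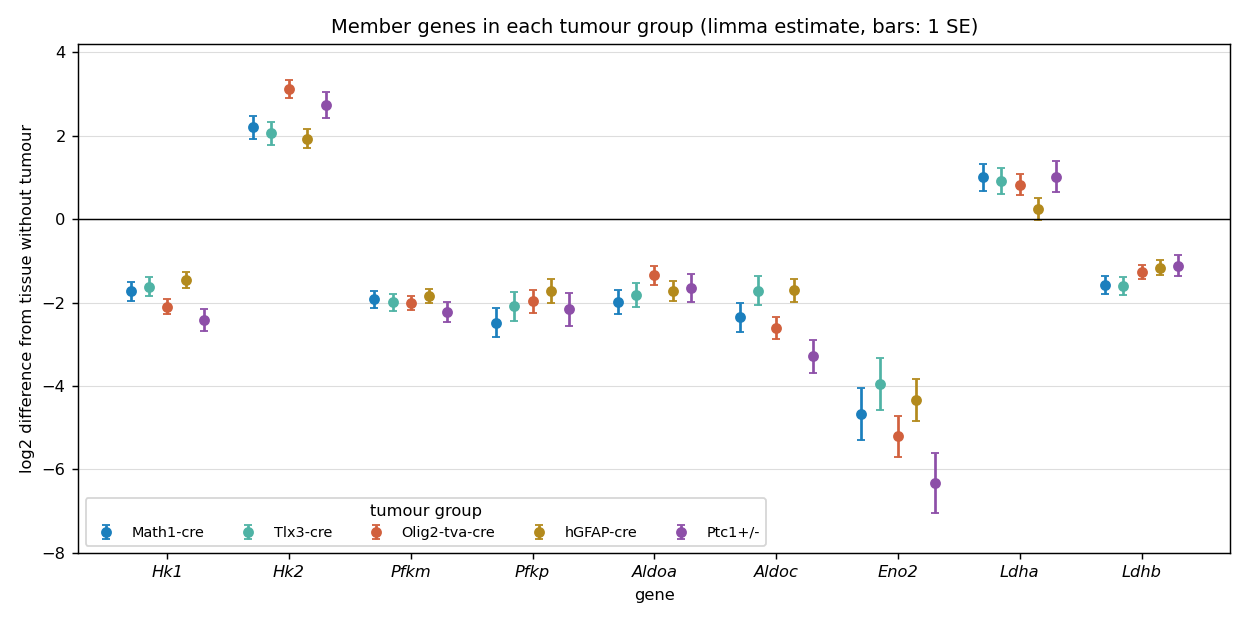
Log2 difference of each isozyme gene between each tumour group and the 6 non-tumour arrays, with bars giving the standard error of the limma fit. Hk2 and Ldha lie above 0 in all 5 groups and the other 7 genes below 0, with Eno2 between -6.33 (Ptc1+/-, a bound) and -3.96.

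Among the tumours, Hk2 was the isozyme gene whose level differed between the SmoM2 groups. A test over the 4 SmoM2 groups called 128 genes (0.946% of those tested), among them Hk2 (F = 12.2, limma adjusted p = 0.0153) and none of the other 8, whose adjusted p-values ran from 0.120 to 0.834. Group means of Hk2 in these were 10.40 ± 0.57 (SD, n = 7) in Olig2-tva-cre:SmoM2, 9.47 ± 0.24 (SD, n = 3) in Math1-cre:SmoM2, 9.33 ± 0.29 (SD, n = 3) in Tlx3-cre:SmoM2 and 9.20 ± 0.42 (SD, n = 6) in hGFAP-cre:SmoM2. The Ptc1+/- arrays fall between the first and second of these groups, and no neighbours in this order of 5 differed by limma (adjusted p from 0.725 to 1).

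In hGFAP-cre:SmoM2 against Olig2-tva-cre:SmoM2, where 2.99% of all genes were called, 2 of the 9 isozyme genes were. Hk2 was 2.29-fold lower in hGFAP-cre:SmoM2 (-1.20, SE 0.22, limma adjusted p = 0.0052) and Hk1 was higher (0.64, SE 0.18, limma adjusted p = 0.0495). The Hk1 call was lost in 21 of the 27 fits that left out 1 array each (limma adjusted p up to 0.134). Aldoc was 0.90 higher and not called (SE 0.27, limma adjusted p = 0.0572), but was called without Olig2-tva-cre:SmoM2 array 2 (1.13, limma adjusted p = 0.00932), without its array 3 (1.04, limma adjusted p = 0.0187) or without either Ptc1+/- array (limma adjusted p = 0.0424 and 0.0425). Ldha was called without Olig2-tva-cre:SmoM2 array 3 (-0.74, limma adjusted p = 0.0458). The Hk2-to-Hk1 ratio was 3.57-fold lower in hGFAP-cre:SmoM2 (-1.84, exact permutation p = 0.00233, adjusted p = 0.0133), with 1 Olig2-tva-cre:SmoM2 array, at 0.64, inside the hGFAP-cre:SmoM2 range. That ratio difference was -0.68 with the other Hk1 probe set (adjusted exact permutation p = 0.552), -1.26 with the mean of the probe sets (adjusted exact permutation p = 0.121) and -2.10 without the 5 arrays of highest 3' to 5' ratio (adjusted exact permutation p = 0.0794).

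Array brightness moved with these groups. Of the 7 dimmest arrays 5 were of Olig2-tva-cre:SmoM2, and the trimmed mean signal of that group ran from 42.6 to 205.4. Without the 7 dimmest arrays, which leaves 2 of Olig2-tva-cre:SmoM2, the Hk2 difference was -0.55 (limma adjusted p = 0.351), that of Hk1 0.37 (limma adjusted p = 0.449) and that of the Hk2-to-Hk1 ratio -0.92 (adjusted exact permutation p = 0.448). With brightness as a covariate the Hk2 difference was -1.08 (limma adjusted p = 0.00488). The other Hk1 probe set, at the floor on 2 arrays of each of these groups, gave the opposite sign, -0.52. The Hk1 difference thus rests on 1 probe set, and floored values enter the results from the other.

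The groups hGFAP-cre:SmoM2 and Olig2-tva-cre:SmoM2 together were next set against Math1-cre:SmoM2 and Tlx3-cre:SmoM2. With limma, 35 genes were called (0.259%) and 0 of the 9 isozyme genes, of which Hk2 and Ldhb had an unadjusted p under 0.05 (adjusted p from 0.241 to 0.94). The Ldha-to-Ldhb ratio was lower by 0.76 in the first pair of groups (exact permutation p = 0.00287, adjusted p = 0.0144). The Hk2-to-Hk1 ratio was 0.57 higher (adjusted exact permutation p = 0.413), the Aldoa-to-Aldoc ratio 0.54 higher (adjusted exact permutation p = 0.342) and the Pfkp-to-Pfkm ratio 0.41 higher (adjusted exact permutation p = 0.242). Without the 5 arrays of highest 3' to 5' ratio the Ldha-to-Ldhb difference was -0.56 (adjusted exact permutation p = 0.0794). On all arrays the pooled groups were uneven, with a mean Ldha-to-Ldhb ratio of -0.37 in hGFAP-cre:SmoM2 and 0.32 in Olig2-tva-cre:SmoM2. It was 0.80 in Math1-cre:SmoM2 and 0.73 in Tlx3-cre:SmoM2.

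Between Ptc1+/- tumours and the SmoM2 tumours limma called 0 of the 9 genes, and 0.547% of all genes. Aldoc (-1.19, limma adjusted p = 0.162), Eno2 (-1.79, limma adjusted p = 0.266) and Hk1 (-0.69, limma adjusted p = 0.233) had an unadjusted p under 0.05, with only 2 Ptc1+/- arrays. For Eno2, 1 of these 2 was at the floor, so that difference is a bound. Against hGFAP-cre:SmoM2 alone, where 1.43% of genes were called, Aldoc was lower in Ptc1+/- (-1.58, SE 0.40, limma adjusted p = 0.0387).

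Across arrays Hk1, Aldoc and Eno2 followed each other. Over the 27 arrays, which share the tumour and control split, Pearson's r was 0.95 for Aldoc with Eno2, 0.95 for Hk1 with Eno2 and 0.94 for Hk1 with Aldoc. Over the 21 tumour arrays with group means removed it was 0.82, 0.76 and 0.70 for the same pairs. Hk1 and Hk2 gave -0.91 over 27 arrays and -0.36 within tumour groups, and Hk2 and Ldha gave 0.44 and -0.56. Over the 27 arrays other pairs came close to the values among Hk1, Aldoc and Eno2, such as 0.93 for Hk1 with Pfkm and 0.91 for Pfkm with Eno2. Within tumour groups other pairs had values of like size, such as 0.67 for Pfkm with Aldoa, 0.61 for Aldoa with Ldhb and -0.61 for Pfkp with Ldha. The Ldha level moved with the 3' to 5' ratio of the arrays, whose part in these correlations was not tested.

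The genes whose levels were most like those of Eno2 over the 27 arrays were Chn2 (r = 0.989), Cbln3 (r = 0.985), a synaptic organiser made by granule neurons, and Vsnl1 (r = 0.985), a neuronal calcium sensor. Hk1 was most like Nefl (r = 0.966), a neurofilament subunit, Atp2b3 (r = 0.966), a plasma membrane calcium pump, and Diras2 (r = 0.965). Aldoc was most like Sorl1 (r = 0.965) and Atp2b3 (r = 0.963). Hk2 was most like Ybx1 (r = 0.952), an RNA-binding protein, Rps18 (r = 0.950), a ribosomal protein, and Ppp1r14b (r = 0.947). Ldha was most like Ostc (r = 0.916), Prdx2 (r = 0.914), a peroxiredoxin, and Cenpx (r = 0.899). Over the 21 tumour arrays with group means removed, Aldoc was most like Gjb6 (r = 0.872), an astrocyte connexin, Ak4 (r = 0.871) and Elmod1 (r = 0.864), and Eno2 was most like Cbln3 (r = 0.947), Chn2 (r = 0.947) and Mbp (r = 0.926), a myelin protein.

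The other genes of the pathway moved in both directions. Their shares of called genes are to be read against the 52.4% of all genes called in this comparison. For counts in 1 direction the shares of all genes are 26.8% higher and 25.6% lower. Of 9 other glycolytic enzymes tested 4 were lower in tumours and 0 higher: triose phosphate isomerase Tpi1 (-1.71, limma adjusted p = 7.62e-11), phosphoglycerate mutase Pgam1 (-1.17, limma adjusted p = 4.68e-08), the liver phosphofructokinase Pfkl (-1.04) and phosphoglycerate kinase Pgk1 (-0.78). Pyruvate kinase Pkm differed by -0.35 and was not called (limma adjusted p = 0.0807). Of 6 glucose and lactate transport genes the glucose transporters Slc2a1 (-1.40) and Slc2a3 (-1.31) and the transporter chaperone Bsg (-0.86) were lower, and the insulin-responsive glucose transporter Slc2a4 was higher (1.14). Of 13 genes of pyruvate entry into mitochondria 5 were lower and 0 higher, led by the pyruvate dehydrogenase kinase Pdk2 (-2.61). Of 5 genes of fructose bisphosphate control 1 was lower, Pfkfb2 (-0.98).

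The pentose phosphate pathway, which branches from glucose 6-phosphate to make ribose and NADPH, had 5 of 9 genes higher and 0 lower. Of all genes 26.8% were called higher and 25.6% lower. Counting both directions, 5 of 9 is near the 52.4% of all genes. The list median was 0.51. By group 1 of 9 was higher in Math1-cre:SmoM2, 2 in Ptc1+/- and 4 in each other group, while H6pd was lower in Olig2-tva-cre:SmoM2 (-0.84, limma adjusted p = 0.0499) and Pgd in Ptc1+/- (-1.08, limma adjusted p = 0.0258). Its phosphogluconolactonase Pgls was 1.61 higher (limma adjusted p = 2.42e-07), and Prps2 (0.64), Taldo1 (0.57), Tkt (0.56) and Rpia (0.51) were also higher. Of 12 genes known as targets of hypoxia 6 were lower and 1, the demethylase Kdm3a (0.95), was higher. Among those lower were Ndrg1 (-2.04), Bnip3 (-1.96) and Vegfa (-1.62), the last a bound because 2 tumour arrays were at the floor. Of 10 transcription factor genes linked to glycolysis Mycn was 4.65 higher (limma adjusted p = 6.22e-13), Myc was higher by at least 3.07, a bound because 5 of the 6 controls were at the floor, and Epas1 was lower (-0.43, limma adjusted p = 0.0278). Hif1a differed by -0.25 (limma adjusted p = 0.26).

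**Figure D5:**
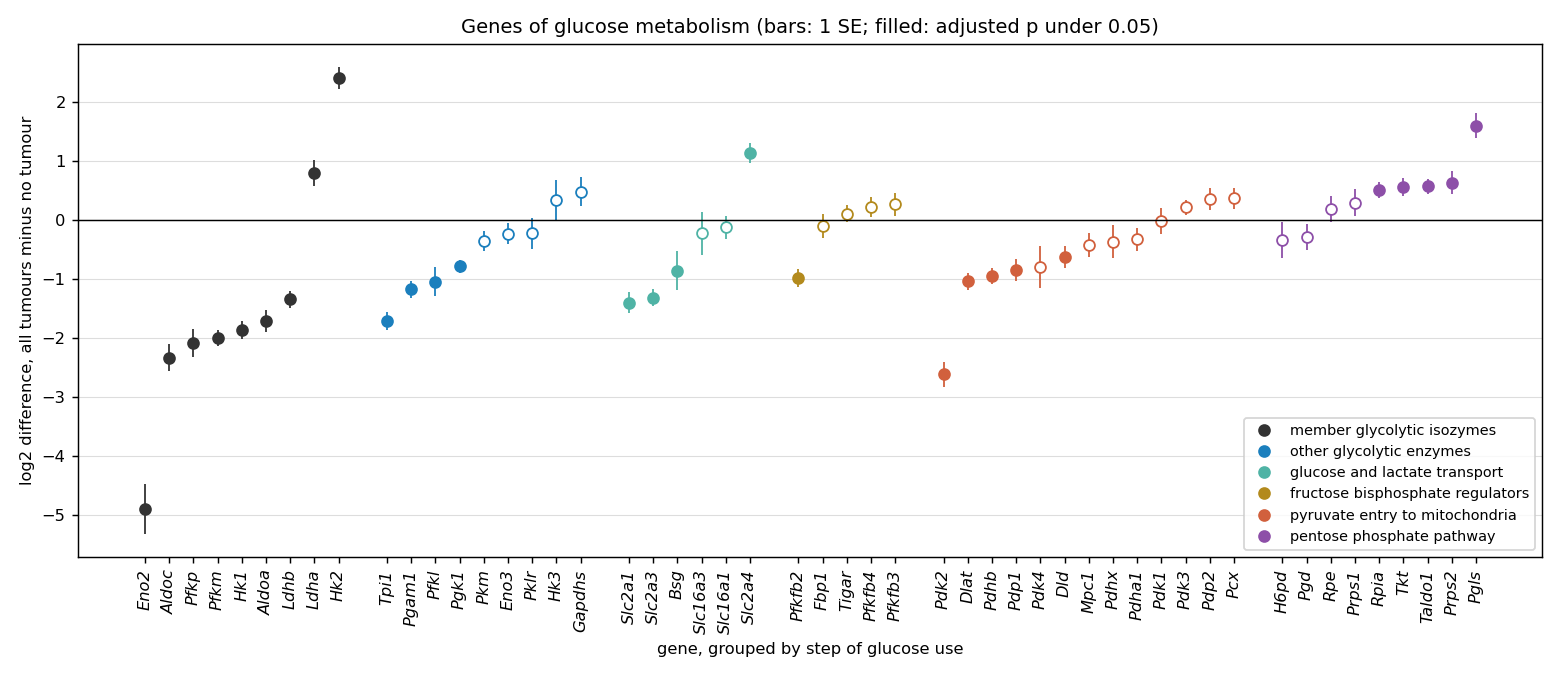
Log2 difference between tumours and non-tumour cerebellum for each tested isozyme gene and for genes of the pathway lists, grouped by list along the horizontal axis. The lists shown are other glycolytic enzymes, glucose and lactate transport, fructose bisphosphate control, pyruvate entry and pentose phosphate. Points are filled for genes called by limma. Pentose phosphate genes called lie above 0 (5 of 9), and called genes of the other glycolytic enzymes lie below 0 (4 of 9).

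The promoters of Hk2, Hk1, Ldha and Ldhb are shown because these pairs gave the clear shifts. Each is the 250 bases before a RefSeq start of the gene (build GRCm38.p6), the first of 2 listed starts for Hk1 and Ldha, 5′ to 3′ on the gene's strand, with every ACGTG or its reverse complement CACGT in capitals. ACGTG is the core letters bound by hypoxia-inducible factors, and CACGTG, which contains ACGTG on both strands, is the E-box bound by Myc proteins. The windows are chr6:82774455-82774704 (minus strand) for Hk2, chr10:62379909-62380158 (minus strand) for Hk1, chr7:46845554-46845803 (plus strand) for Ldha and chr6:142507958-142508207 (minus strand) for Ldhb.
Hk2: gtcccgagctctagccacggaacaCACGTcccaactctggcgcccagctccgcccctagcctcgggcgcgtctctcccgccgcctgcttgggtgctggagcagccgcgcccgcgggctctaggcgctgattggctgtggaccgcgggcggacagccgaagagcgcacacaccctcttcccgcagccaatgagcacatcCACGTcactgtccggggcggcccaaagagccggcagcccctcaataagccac
Hk1: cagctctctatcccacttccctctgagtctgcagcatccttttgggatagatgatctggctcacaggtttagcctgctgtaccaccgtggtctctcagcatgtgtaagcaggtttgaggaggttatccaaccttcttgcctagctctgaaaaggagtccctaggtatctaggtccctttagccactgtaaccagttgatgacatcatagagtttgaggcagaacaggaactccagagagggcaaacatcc
Ldha: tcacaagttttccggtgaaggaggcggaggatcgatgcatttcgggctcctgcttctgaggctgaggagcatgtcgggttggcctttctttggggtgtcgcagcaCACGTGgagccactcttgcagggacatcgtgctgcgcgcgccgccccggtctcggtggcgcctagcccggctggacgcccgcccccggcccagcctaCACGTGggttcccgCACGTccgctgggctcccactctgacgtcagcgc
Ldhb: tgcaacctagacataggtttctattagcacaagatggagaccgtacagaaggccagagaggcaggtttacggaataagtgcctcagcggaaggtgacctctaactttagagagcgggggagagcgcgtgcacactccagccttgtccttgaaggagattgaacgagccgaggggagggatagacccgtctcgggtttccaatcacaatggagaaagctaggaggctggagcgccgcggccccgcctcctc
The letters stand at 2 places in the Hk2 window and at 3 in the Ldha window, where 2 of the 3 are CACGTG. The Hk1 and Ldhb windows hold none, nor do the windows at the second starts of Hk1 and Ldha. Over all 10 genes and their 20 windows, Hk2, Ldha, Pfkm and Aldoa have a window with ACGTG on either strand, and Ldha and Pfkm one with CACGTG. Of all genes 18.5% have a window with ACGTG and 6.86% one with CACGTG. Of 32851 promoter windows of this length 16.6% hold ACGTG and 6.02% CACGTG. At least 2 matches to ACGTG, each CACGTG counting as 2, stand in 6.81% of windows, and at least 2 of CACGTG in 0.429%. Pfkm and Aldoa, which fell in tumours, thus share the letters with Hk2 and Ldha, which rose. Matches are of letters only, and binding was not measured.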

How the data were processed

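For each of 27 arrays of mouse cerebellum the authors deposited 1 signal intensity per probe set on a linear scale (45101 probe sets). The submitters' processing notes name MAS5, and neither its version nor its target for scaling is given in the sources used here. Array trimmed means ran from 42.58 to 205.96, so each array was rescaled to 123.61. Signals under 10.3 were raised to that floor (3.37 on the log2 scale) and logged. Probe sets above 45.6 on at least 3 arrays were kept (30107), and the one with the highest mean stood for a gene (13527 genes). Of all probe sets 34945 had 1 gene in the platform annotation, which can be old, and 932 several. The model was limma 3.58.1 (trend and robust, 6 group means) in R 4.3.3, with Benjamini-Hochberg adjustment over all genes and calls at 0.05, and was tested on simulated data. "All tumours" weights the 5 groups equally in limma. Isozyme ratios were tested by exact two-sided permutation over arrays weighted equally. The calculation was checked against that of scipy 1.17.1 on random numbers. With array data, the number of arrays limits the precision. Named genes are the isozyme genes and some of the called and leading genes of the pathway and marker lists. The 3 genes most like each isozyme gene by Pearson's r were listed, and only part of them is named. Alternatives covered scaling, floor, filter, probe set, model, covariates and arrays left out. The isozyme genes, pathway lists and marker lists were chosen with earlier results of these data known. Gene names and promoters (RefSeq, GRCm38.p6) came from reference tables, and the files name no genome build.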

Additional observations from a re-analysis of the deposited data

Results flagged for a closer look

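The 9 genes and 4 ratios were each examined in the 3 groups of 4 to 10 arrays, which gave 39 sets of values, and 3 of these held an array far from the others. Chance alone gives about 1 in 20. The Hk2-to-Hk1 log2 ratio of Olig2-tva-cre:SmoM2 array 2 was 0.64, with the next array of that group at 2.03 and the highest at 3.06. The Aldoa-to-Aldoc log2 ratio of hGFAP-cre:SmoM2 array 3 was -0.52, with the next at -1.37 and the lowest at -1.78. The Pfkp-to-Pfkm log2 ratio of non-tumour array 5 was -2.39, with the next at -1.77 and the highest at -1.57. None of these arrays was left out of the reported values.

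Differences between tumour groups were flagged in 4 results. The Aldoc call in Ptc1+/- against hGFAP-cre:SmoM2 and the Hk2 call over the SmoM2 groups, given above, are not among these. Between hGFAP-cre:SmoM2 and Olig2-tva-cre:SmoM2 tumours, Hk1 differed by 0.64, Hk2 by -1.20 and the Hk2-to-Hk1 log2 ratio by -1.84. Between the pooled arrays of these groups and the Math1-cre:SmoM2 and Tlx3-cre:SmoM2 tumours, the Ldha-to-Ldhb log2 ratio differed by -0.76.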

How the results depend on the processing

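For tumours against non-tumour tissue, 8 of the 9 genes kept direction and call under every alternative run (Hk2 2.06 to 2.59, Hk1 -3.19 to -1.79, Eno2 -5.22 to -4.71, Ldhb -1.69 to -1.03), and Ldha lost its call only without rescaling (0.45, otherwise 0.61 to 0.94). The Hk1 value of -3.19, from its other probe set, is a bound. Without rescaling the median of all genes moved to -0.34, and 27.6% of called genes were higher, against 51.2%. The Hk2-to-Hk1 shift ranged from 3.82 to 5.72 and that of Ldha to Ldhb from 1.89 to 2.19. Of these arrays, 7 were dim and 5 had a high 3' to 5' ratio, which limits comparisons among tumours.

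Among tumours, the 35 genes called between hGFAP-cre:SmoM2 with Olig2-tva-cre:SmoM2 and Math1-cre:SmoM2 with Tlx3-cre:SmoM2 became 6958 without rescaling (all-gene median -0.76), 520 with array weights, 10 with the 3' to 5' ratio as a covariate, 9 without the 7 dimmest arrays, 8 without trend and robust fit, 6 with brightness as a covariate, 5 with quantile normalization or with controls of SmoM2 lines alone, and 4 with no floor, no filter or without the 5 arrays of highest 3' to 5' ratio. Leaving out 1 array gave 2 (Math1-cre:SmoM2 array 1) to 81 (Olig2-tva-cre:SmoM2 array 2). In that comparison Pfkm was -0.76 without rescaling, against the main direction and equal to the shift of all genes. The Ldha-to-Ldhb difference there lost its call with the mean of probe sets (-0.69), each of the other 3 Ldhb probe sets (-0.62, -0.61 and -0.77), without the 5 arrays of highest 3' to 5' ratio (-0.56), without the 7 dimmest (-0.70) and with brightness as a covariate (-0.68), and that of Aldoa to Aldoc gained one with the 3' to 5' covariate (0.90).

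Between hGFAP-cre:SmoM2 and Olig2-tva-cre:SmoM2, the Hk2-to-Hk1 difference lost its call with the mean of probe sets (-1.26), the other Hk1 probe set (-0.68), without the 5 arrays (-2.10) and without the 7 (-0.92). That of Hk1 was reversed with its other probe set (-0.52), and the Hk2 difference lost its call without rescaling (-0.96, limma adjusted p = 0.177). Calls were gained for Aldoa to Aldoc with the 3' to 5' (-1.02) and brightness (-1.16) covariates and without Olig2-tva-cre:SmoM2 array 2 (-1.52), its array 3 (-1.45) or hGFAP-cre:SmoM2 array 3 (-1.44, with 1 array left out up to -1.13), and for Ldha to Ldhb with the brightness covariate (-0.74) and without Olig2-tva-cre:SmoM2 array 3 (-0.86, otherwise up to -0.50). For tumours against controls the Aldoa-to-Aldoc difference was 1.07 as a mean of within-line differences. Its exact permutation p of 0.0450 is unadjusted, unlike the main ratio tests, so it is not a call. The Pfkp-to-Pfkm difference was reversed with the other Pfkp probe sets (0.96 and 0.42). The cause of these changes was not tested.

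The replicate numbers were not taken to pair the arrays. With group means removed, same-numbered arrays of different groups had a median correlation of 0.03 over 49 pairs, 19 of them over 0.1. Differently numbered arrays had a median of 0.004 over 244 pairs, 48 of them over 0.1. Whether same-numbered arrays share anything was not tested. With the replicate block 7047 genes were called between tumours and non-tumour tissue, against 7092, and 5 in the comparison of tumour groups that gave 35. With the block Hk2 was 2.54 higher in tumours, and Hk1 between hGFAP-cre:SmoM2 and Olig2-tva-cre:SmoM2 lost its call (limma adjusted p = 0.0885).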
